A study of Mus musculus with 24 samples.

Results

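Liver RNA of mice given Cre to remove the growth hormone (GH) receptor from hepatocytes was compared between 6 mice given a rat IGF1 vector and 6 mice without it, 12 of the 24 libraries of the series. Both groups are labelled as male C57BL/6 mice of the genotype GHRfl/fl, in which the GH receptor gene Ghr is flanked by loxP sites. They were fed chow, injected at 10 to 12 weeks of age with adeno-associated virus serotype 8 (AAV8), and their livers were taken 7 days later. The treatment protocol also speaks of females, but each library is labelled male. The group aHepGHRkd_rIGF1 received a Cre vector at a dose of 1.5 and a rat IGF1 vector at 2.0, both in units of 1e+11 genome copies. The group aHepGHRkd received the same dose of Cre and an empty (Null) vector that brought its total to 3.5. By subtraction the Null dose was 2.0 in aHepGHRkd and 0 in aHepGHRkd_rIGF1, so that the groups differ in Null vector as well as in rat IGF1. All 12 mice carry Cre, and all vectors use the thyroxine-binding globulin (TBG) promoter, which is active in hepatocytes, so Ghr of other liver cells was not targeted. Of the other groups, aHepGHRkd_STAT5bCA (6 mice) received the same Cre dose with a constitutively active STAT5b at 0.75, and Control (6 mice) received Null vector alone at 3.5.

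GH acts on hepatocytes through its receptor, the kinase JAK2 and the transcription factor STAT5b, and the insulin-like growth factor 1 gene (Igf1) is a main target. IGF1 made by hepatocytes circulates bound to IGFBP3 and the acid-labile subunit (Igfals), and it lowers GH secretion from the pituitary. Hepatocytes themselves carry little IGF1 receptor. The comparison asks which liver transcripts differ when IGF1 is supplied without hepatocyte GH receptor.

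The labels name hepatocytes, but the protocol names livers, and transcripts of other liver cells were present in both groups. The Kupffer cell lectin Clec4f stood at 26.6 TPM in aHepGHRkd_rIGF1 and 24.6 TPM in aHepGHRkd, and the sinusoidal endothelial lectin Clec4g at 36.3 and 31.9 TPM in the same order of groups. In whole liver, fewer cells of a type and less RNA per cell cannot be told apart. The authors' deposited table gives 1 TPM (a transcript level corrected for gene length and scaled to a fixed total) per group, an edgeR ratio and a p for each feature, with no value per mouse. No spread between mice and no depth per library can therefore be given, and the only test is the authors' own. The p column was read as adjusted by Benjamini-Hochberg, and a feature was called where it was under 0.05.

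Rat IGF1 went with very few calls. Of 20879 coding features, 2 were called (0.00958%), both lower in aHepGHRkd_rIGF1 (0.00958%), and 0 were called higher (0%). The authors' deposited edgeR p was under 1 for 334 coding features, 186 with a higher and 148 with a lower ratio in aHepGHRkd_rIGF1. Under the adjusted reading these 334 of 20879 have an unadjusted p of at most 0.0153. A cut of that size also passes features without any difference, so these counts are not read as changes. Of the 10986 coding features that reached 1 TPM in either group, 0.856% were higher and 1.18% lower at a deposited p under 1. At a deposited p under 0.05, 737 coding features were called for aHepGHRkd over Control (3.53%). That comparison and the one with rat IGF1 share the aHepGHRkd mice, so their ratios are not independent.

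Most coding genes kept nearly the same level with rat IGF1. Over the 10986 coding features that reached 1 TPM in either group, the median log2 ratio in the authors' deposited table was -0.01, with 5th and 95th percentiles of -0.29 and 0.31. Of these features 98.1% lay within 1.5-fold. The ratio of the group TPM values has a median of 0.09 on the log2 scale, since it runs 0.10 above the deposited ratio. A log2 ratio below is the deposited one and is to be read against that shift. At least 1.5-fold higher were 110 features (1%) and at least 1.5-fold lower were 100 (0.91%). With the TPM ratio the split was 203 higher and 57 lower. A feature that reached 1 TPM in only 1 of the groups passed through its higher value, so the minimum fixed its direction. Of the features past 1.5-fold, 21 higher and 46 lower reached 5 TPM in the higher group. The higher set lay at low levels, with a median of 1.93 TPM in the higher group, against 3.30 TPM for the lower set. Only 4 of the higher set reached 100 TPM, against 13 of the lower set. The lower set summed to 18260 TPM in aHepGHRkd_rIGF1 and 32249 TPM in aHepGHRkd.

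**Figure D1:**
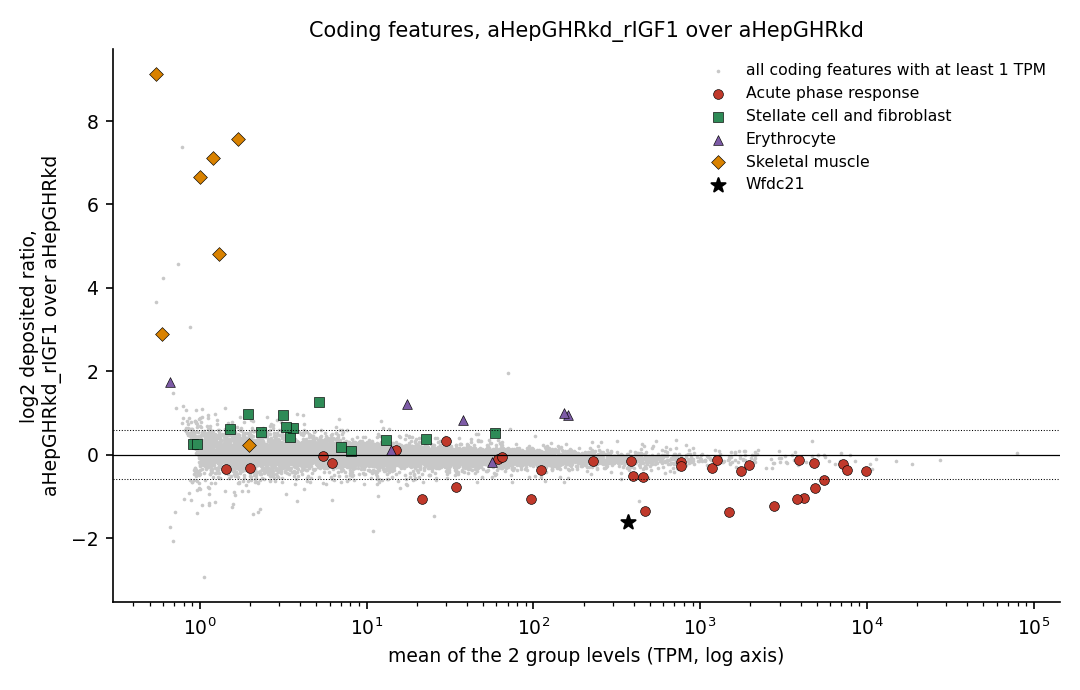
Each grey point is a coding feature with at least 1 TPM in either group, placed by the mean of the 2 group levels (x, TPM, log axis) and the log2 deposited ratio of aHepGHRkd_rIGF1 over aHepGHRkd (y), with dotted lines at 1.5-fold; coloured symbols mark listed genes. The acute phase genes below the lower line lie above 10 TPM and the skeletal muscle markers above the upper line lie below 10 TPM.

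Ghr, the target of Cre, stood at 58.4 TPM in aHepGHRkd_rIGF1, 49.4 TPM in aHepGHRkd_STAT5bCA, 55.1 TPM in aHepGHRkd and 179.6 TPM in Control. Its ratio with rat IGF1 was 0.989 (deposited edgeR p = 1) in the authors' deposited table, and its TPM values stand in the opposite order, within the scaling shift given above. The 3 groups with Cre thus lay close together and below Control. For Igf1 (mm9 chromosome 10, 87321010 to 87399792) the levels were 114 TPM in aHepGHRkd_rIGF1, 96.4 TPM in aHepGHRkd_STAT5bCA, 26.2 TPM in aHepGHRkd and 143 TPM in Control. The authors' deposited ratio with rat IGF1 was 3.89, the largest of any coding feature that reached 5 TPM, with a deposited p of 0.946. The share of rat IGF1 reads that were assigned to the mouse gene is unknown, so this level is not a dose of the transgene.

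No member of the list of IGF ligands, carriers and binding proteins was called. Of its 8 members that reached 1 TPM, with Igf1 itself included, 7 had a ratio above 1, with a median log2 ratio of 0.28. Igfbp3, the main carrier of circulating IGF1, stood at 15.9 TPM in aHepGHRkd_rIGF1 and 8.38 TPM in aHepGHRkd. Its ratio was 1.76 (deposited p = 0.827) in the authors' deposited table. Igfals, which holds IGF1 and IGFBP3 in a ternary complex, stood at 7.88 TPM with rat IGF1, 8.37 TPM in aHepGHRkd and 93.0 TPM in Control. Igfbp1, a binding protein that insulin represses, stood at 134 and 106 TPM in aHepGHRkd_rIGF1 and aHepGHRkd. The endothelial and stromal binding protein Igfbp7 stood at 71.1 and 51.2 TPM in these groups. Igfbp4 and Igfbp2, the most abundant of the family, had deposited ratios of 1.02 and 1.07 in the authors' deposited table.

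The receptors that IGF1 and insulin use did not stand apart. The IGF1 receptor Igf1r was low, at 0.344 TPM in aHepGHRkd_rIGF1 and 0.274 TPM in aHepGHRkd. The insulin receptor Insr stood at 27.3 and 25.8 TPM in these groups. In the list of IGF and insulin receptor signalling, 0 of 40 genes were called in either direction (0% of all coding features were called higher and 0.00958% lower), and 0 of the 35 that reached 1 TPM passed 1.5-fold. The receptor substrate Irs2 had the highest ratio of these 35, at 1.28 (5.54 against 4.02 TPM, deposited p = 1) in the authors' deposited table. Genes that respond to FOXO factors, which insulin restrains, had a median log2 ratio of 0.05 over 18 members, with 0 called. Of these 18, 11 had a ratio above 1 and 7 below, with log2 ratios from -0.49 to 0.53. Among those above 1, the pyruvate dehydrogenase kinase Pdk4 stood at 5.31 TPM with rat IGF1 and 3.44 TPM without. Glucose-6-phosphatase G6pc stood at 290.5 and 219 TPM. Neither was called, and their deposited p was 1.

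Genes that GH drives through STAT5b stayed near their aHepGHRkd level. Socs2 and Cish, inhibitors of cytokine receptors that STAT5 induces, stood at 1.10 and 0.414 TPM in aHepGHRkd_rIGF1, 1.48 and 0.468 TPM in aHepGHRkd, and 17.6 and 9.21 TPM in Control. The GH receptor signalling list had 0 of 15 members called with rat IGF1 and a median log2 ratio of 0.00 over the 12 that reached 1 TPM. Of the coding features called at least 2-fold lower in aHepGHRkd than in Control and reaching 1 TPM, 130 in number, the median log2 ratio was -1.75 for aHepGHRkd over Control and -0.07 for aHepGHRkd_rIGF1 over aHepGHRkd. Only 4 of these 130 were at least 1.5-fold higher with rat IGF1, 10 were at least 1.5-fold lower, and 1 (Wfdc21) was called. Among the 4 is Igf1 itself, whose level may hold reads of the rat vector. The 86 features called at least 2-fold higher in aHepGHRkd had medians of 1.45 and -0.26 for the same comparisons. Of these 86, 0 were at least 1.5-fold higher with rat IGF1, 14 were at least 1.5-fold lower, and 0 were called. Over all coding features that reached 1 TPM in aHepGHRkd_rIGF1 or aHepGHRkd, 1% were at least 1.5-fold higher and 0.91% lower. The features were chosen on the aHepGHRkd level, which stands in both ratios, so the sign of the medians is not evidence of a return towards Control.

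The genes with the largest differences between aHepGHRkd and Control show this one by one. Hsd3b5, a male-biased steroid dehydrogenase, stood at 0.272 TPM in aHepGHRkd_rIGF1, 30.6 TPM in aHepGHRkd_STAT5bCA, 0.169 TPM in aHepGHRkd and 96.0 TPM in Control. The organic anion transporter Slco1a1 stood at 4.85, 45.5, 3.20 and 147 TPM in the same order. For the protease inhibitor Serpina1e the levels were 119, 1595, 112 and 9135 TPM. In all 3 genes the level with rat IGF1 lay beside that of aHepGHRkd, and the group with active STAT5b lay between it and Control. The fatty acid binding protein Fabp5 stood at 3.30 TPM with rat IGF1 and 4.12 TPM in aHepGHRkd, against 82.8 TPM in Control. The female-biased cytochrome Cyp2b9 stood at 244 and 287 TPM with and without rat IGF1, against 1.35 TPM in Control. Cyp2b13, also female-biased, stood at 14.0 TPM with rat IGF1 and 36.5 TPM in aHepGHRkd, a ratio of 0.359 with a deposited p of 1 in the authors' deposited table. With active STAT5b Cyp2b13 stood at 8.91 TPM. Across the 2 sex-biased lists, 23 male-biased genes that reached 1 TPM had a median log2 ratio of -0.02 and none past 1.5-fold, and the median turns to 0.08 by TPM values. The 23 female-biased genes had a median of -0.16 (-0.04 by TPM values), with 5 at least 1.5-fold lower (0.91% of all such coding features were) and 0 called. Some of these 5 reached 1 TPM only in aHepGHRkd, so the minimum fixed their direction. Members of the Mup, Slc22a and Cyp2b families are close copies of each other, so the split of reads among them is uncertain.

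**Figure D2:**
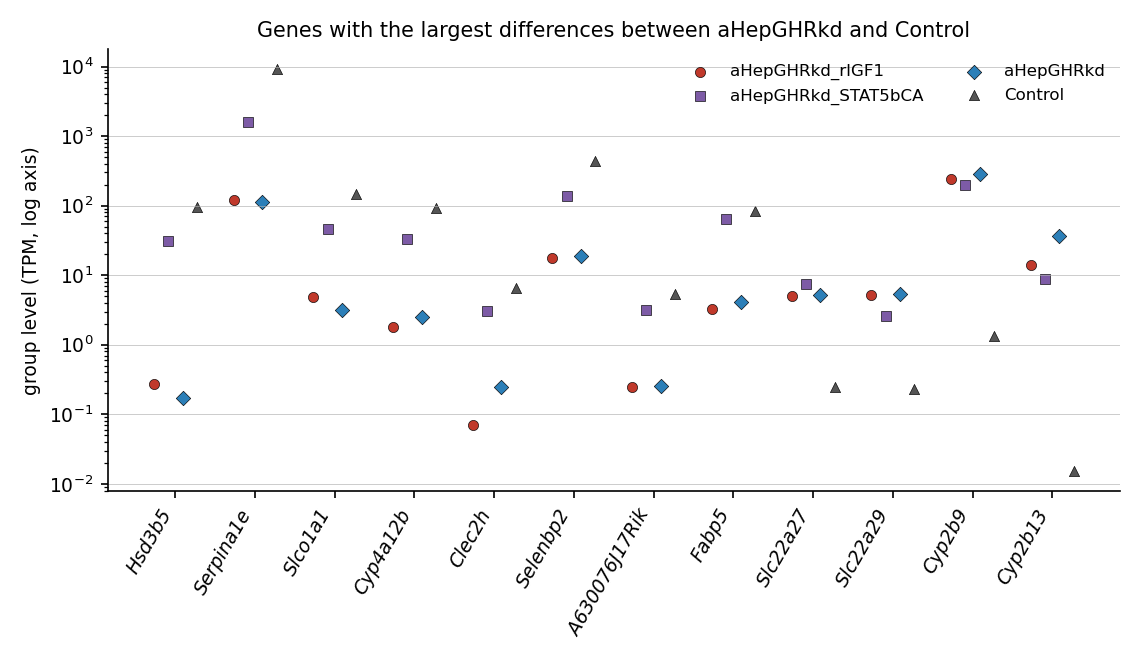
Group levels (y, TPM, log axis) of the 12 coding genes with the largest fold between aHepGHRkd and Control among those called there with at least 5 TPM (x); each symbol is 1 group value from the authors' deposited table. The aHepGHRkd_rIGF1 and aHepGHRkd symbols differ by less than 2-fold except for Clec2h and Cyp2b13, which were not called with rat IGF1.

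Wfdc21 and Orm1, which encode secreted proteins, fell with rat IGF1. Wfdc21, a member of the WAP four-disulfide core family that is induced in inflammation, stood at 193 TPM in aHepGHRkd_rIGF1, 979 TPM in aHepGHRkd_STAT5bCA, 548 TPM in aHepGHRkd and 1374 TPM in Control. Its ratio was 0.329 (deposited edgeR p = 0.0114) in the authors' deposited table. It was also called lower in aHepGHRkd than in Control, at a ratio of 0.394 (deposited p = 0.00169) in the authors' deposited table, so that the level with rat IGF1 was the lowest of the 4 groups. The gene lies on chromosome 11, 83560442 to 83566148, plus strand, with 3 exons on mm9. A noncoding feature annotated as antisense overlaps it, and stood at 14.8 TPM with rat IGF1 and 38.7 TPM in aHepGHRkd (ratio 0.355, deposited p = 0.0232, the authors' deposited table). No source used here states strand-aware counting, so reads of these overlapping features cannot be told apart. The other members of the family had ratios above and below 1 and none was called. Wfdc17, for example, stood at 11.4 TPM with rat IGF1 and 11.3 TPM without.

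Orm1, alpha-1-acid glycoprotein, is a plasma carrier of the acute phase. Its level was 873 TPM in aHepGHRkd_rIGF1, 2636 TPM in aHepGHRkd_STAT5bCA, 2091 TPM in aHepGHRkd and 2360.4 TPM in Control. The ratio with rat IGF1 was 0.388 (deposited edgeR p = 0.0499) in the authors' deposited table, just inside the threshold. Orm1 was not called in aHepGHRkd against Control (ratio 0.895, deposited p = 1, the authors' deposited table). It lies on chromosome 4, 63005590 to 63009197, plus strand, with 6 exons on mm9, next to its paralogs Orm2 and Orm3, whose reads may be shared with it. Orm3 stood at 14.7 TPM with rat IGF1 and 28.4 TPM in aHepGHRkd (ratio 0.481, deposited p = 0.994, the authors' deposited table), and Orm2 at 390.3 and 522 TPM (ratio 0.690, deposited p = 1). With active STAT5b, Orm3 stood at 23.8 TPM and Orm2 at 247 TPM, also below aHepGHRkd.

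Most acute phase genes had lower values with rat IGF1, and 1 of them was called. The list holds plasma proteins that hepatocytes make in inflammation, mainly under interleukin 6, interleukin 1 and glucocorticoids. Of 35 members, 1 (Orm1) was called lower and 0 higher. Of the 34 that reached 1 TPM, 32 had a ratio below 1, and 10 were at least 1.5-fold lower (0.91% of all such coding features were). A deposited p under 1 was found for 10 of the 34, all lower, where 1.18% of all such coding features were lower and 0.856% higher at that mark. The list was written with earlier results of these data known, so these counts beside the shares are a description and not a test. The median log2 ratio was -0.33, or -0.23 for the ratio of TPM values, against -0.01 and 0.09 over all coding features. Summed over the list the level was 57096 TPM in aHepGHRkd_rIGF1, 63612 TPM in aHepGHRkd_STAT5bCA, 75368 TPM in aHepGHRkd and 53916 TPM in Control. A lower sum than in aHepGHRkd was thus not particular to rat IGF1. In aHepGHRkd against Control 12 members of the list were called higher and 3 lower, where 1.62% of all coding features were called higher and 1.91% lower. The aHepGHRkd mice stand in both comparisons.

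**Figure D3:**
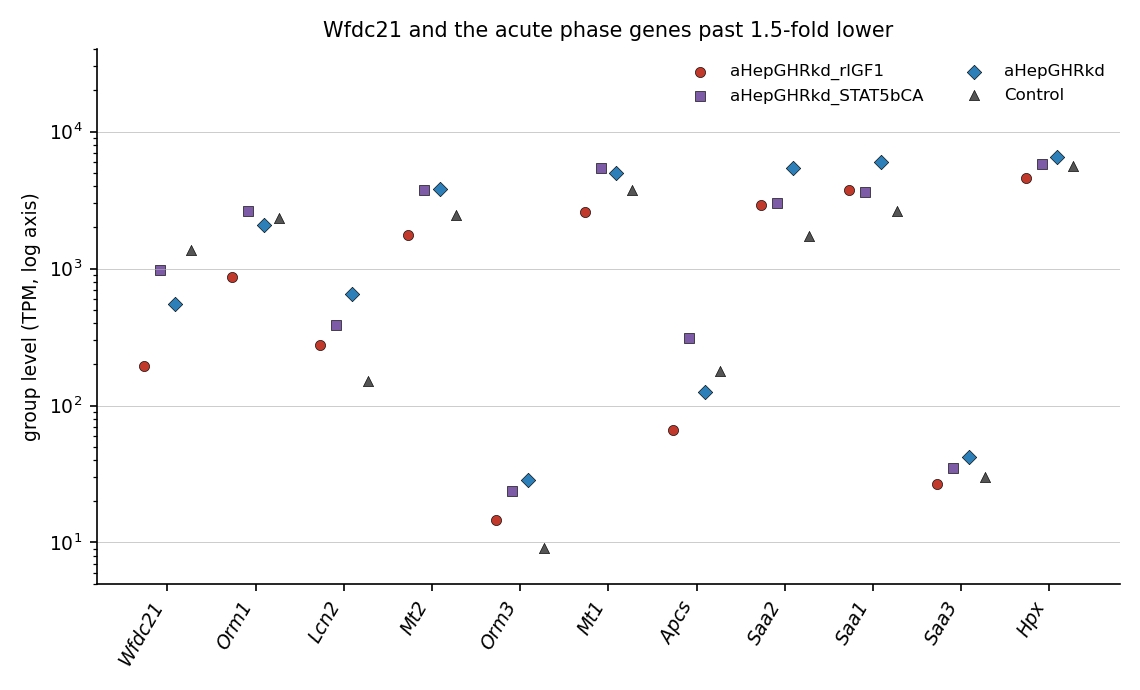
Group levels (y, TPM, log axis) of Wfdc21 and of the 10 acute phase genes at least 1.5-fold lower in aHepGHRkd_rIGF1 than in aHepGHRkd (x); each symbol is 1 group value from the authors' deposited table. The aHepGHRkd_rIGF1 symbol lies below the aHepGHRkd symbol in each of the 11 genes, of which Wfdc21 and Orm1 were called.

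The metallothioneins Mt1 and Mt2, small proteins that bind zinc and copper, came next to the threshold. Mt1 stood at 2599 TPM in aHepGHRkd_rIGF1, 5473 TPM in aHepGHRkd_STAT5bCA, 4972 TPM in aHepGHRkd and 3726 TPM in Control, with a ratio of 0.481 (deposited p = 0.0751) for rat IGF1 in the authors' deposited table. For Mt2 the levels were 1759, 3763, 3797 and 2449 TPM in the same order, with a ratio of 0.424 (deposited p = 0.101) in the authors' deposited table. Both were lowest in the group with rat IGF1. Lcn2, which binds bacterial iron carriers, stood at 277 TPM with rat IGF1, 388 TPM with active STAT5b, 654 TPM in aHepGHRkd and 152 TPM in Control. Its ratio with rat IGF1 was 0.391 (deposited p = 0.101), and that of aHepGHRkd over Control was 4.36 (deposited p = 1.48e-10), in the authors' deposited table. Unlike the metallothioneins, Lcn2 with rat IGF1 lay above its Control level.

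The serum amyloid A genes, apolipoproteins that rise in inflammation, were among the most abundant of these genes. Saa1 stood at 3763 TPM and Saa2 at 2896 TPM in aHepGHRkd_rIGF1, against 6057 and 5463 TPM in aHepGHRkd and 2644 and 1736 TPM in Control. With active STAT5b they stood at 3656 and 2996 TPM, also below aHepGHRkd. The genes are close copies, so the split of reads between them is uncertain. Their ratios of 0.575 and 0.490 had deposited p of 1 and 0.827 in the authors' deposited table. Apcs, serum amyloid P, stood at 66.5 TPM with rat IGF1, 126 TPM in aHepGHRkd and 177 TPM in Control (ratio 0.483, deposited p = 0.243, the authors' deposited table). The haem carrier hemopexin (Hpx) stood at 4588 and 6523 TPM with and without rat IGF1 (ratio 0.653, deposited edgeR p = 0.662, the authors' deposited table). The fibrinogen chains had ratios closer to 1, with Fga at 3893 TPM with rat IGF1 and 3947 TPM without. The members with a ratio above 1 were the interleukin 6 receptor Il6ra (34.1 TPM with rat IGF1 and 25.6 TPM without) and the transcription factor Cebpd (16.3 and 13.8 TPM). Outside the list, Fgl1, a fibrinogen-like protein secreted by the liver, stood at 285 TPM with rat IGF1, 1111 TPM with active STAT5b, 575 TPM in aHepGHRkd and 709 TPM in Control (ratio 0.461, deposited p = 0.101, the authors' deposited table).

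Promoters are shown for 5 of the acute phase genes, as 3 families whose members were lower side by side. The windows run from 250 bases before to 50 bases after the transcription start, 5′ to 3′ on the gene's strand, from RefSeq on GRCm38.p6, a different build from the mm9 coordinates above. A window was held for 10 of 13 genes looked up, and not for Wfdc21, Orm1 and Fgl1. Capitals mark matches, on either strand, to the core of the metal response element (TGCGCNC or TGCACNC), which the zinc-sensing factor MTF1 binds, and to TTGCNCAA, a site of the C/EBP type. Both motifs were chosen after values or windows had been seen. No match to one overlaps a match to the other.
Mt1, chr8:94178839-94179138, plus strand: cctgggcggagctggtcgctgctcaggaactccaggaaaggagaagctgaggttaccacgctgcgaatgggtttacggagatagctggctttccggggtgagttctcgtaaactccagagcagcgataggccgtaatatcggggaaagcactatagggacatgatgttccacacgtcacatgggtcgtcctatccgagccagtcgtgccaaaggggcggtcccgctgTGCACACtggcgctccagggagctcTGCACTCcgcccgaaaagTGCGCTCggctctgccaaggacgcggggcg
Mt2, chr8:94172368-94172667, plus strand: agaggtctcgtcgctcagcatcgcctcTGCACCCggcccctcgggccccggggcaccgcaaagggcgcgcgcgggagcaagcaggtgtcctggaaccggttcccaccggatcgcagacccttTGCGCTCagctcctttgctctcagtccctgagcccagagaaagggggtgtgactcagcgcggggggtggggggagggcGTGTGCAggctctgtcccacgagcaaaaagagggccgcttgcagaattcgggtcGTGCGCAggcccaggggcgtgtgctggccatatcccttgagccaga
Orm2, chr4:63362199-63362498, plus strand: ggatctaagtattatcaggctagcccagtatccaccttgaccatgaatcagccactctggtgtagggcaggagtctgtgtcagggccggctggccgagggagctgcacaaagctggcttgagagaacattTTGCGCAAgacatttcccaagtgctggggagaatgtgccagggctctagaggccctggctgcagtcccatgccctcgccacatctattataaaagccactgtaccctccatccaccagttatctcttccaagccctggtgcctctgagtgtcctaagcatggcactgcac
Orm3, chr4:63355908-63356207, plus strand: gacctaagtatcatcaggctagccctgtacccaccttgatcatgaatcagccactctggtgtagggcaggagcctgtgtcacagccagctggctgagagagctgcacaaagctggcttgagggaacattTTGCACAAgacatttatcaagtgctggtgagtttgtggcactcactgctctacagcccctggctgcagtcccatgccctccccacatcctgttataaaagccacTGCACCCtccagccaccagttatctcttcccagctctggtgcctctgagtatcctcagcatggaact
Saa2, chr7:46751583-46751882, plus strand: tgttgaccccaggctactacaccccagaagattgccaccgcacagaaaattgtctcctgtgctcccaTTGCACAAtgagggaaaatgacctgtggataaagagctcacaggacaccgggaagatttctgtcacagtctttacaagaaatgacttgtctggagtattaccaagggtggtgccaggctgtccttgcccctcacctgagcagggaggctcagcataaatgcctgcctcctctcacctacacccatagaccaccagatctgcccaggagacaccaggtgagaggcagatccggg
Mt1 holds 3 matches, Mt2 holds 4 and Orm3 holds 1 to the metal response core, which 25.7% of 32851 RefSeq promoter windows of this length hold at least once. Orm2, Orm3 and Saa2 each hold 1 match to TTGCNCAA, which 2.94% of these windows hold. That match starts at base 131 of the Orm2 window, 130 of the Orm3 window and 68 of the Saa2 window, and Lcn2 and Saa1 also hold 1 match each. Apcs holds neither motif. The matches describe letters in these windows and say nothing of binding.

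Other hepatocyte programmes showed smaller shifts with 0 calls. Cholesterol synthesis genes had a median log2 ratio of -0.24 (-0.15 by TPM values), with 18 of 21 below 1. Squalene epoxidase Sqle stood at 31.0 TPM with rat IGF1 and 40.0 TPM in aHepGHRkd (ratio 0.722, deposited p = 0.697, the authors' deposited table). The chaperones and heat shock genes of the endoplasmic reticulum (ER) stress list had a median of -0.24 (-0.13 by TPM values), with 16 of 20 below 1. Of these 20, 6 were lower at a deposited p under 1 (1.18% of all coding features that reached 1 TPM were). Hspa5, the main ER chaperone, stood at 361 and 457 TPM (ratio 0.734, deposited p = 0.681, the authors' deposited table), and the ER-resident growth factor Manf at 123 and 182 TPM (ratio 0.631, deposited p = 0.783). In the interferon list 24 of 28 lay below 1, with a median of -0.14 (-0.05 by TPM values). The ubiquitin-like Isg15 stood at 13.8 TPM with rat IGF1 and 21.2 TPM in aHepGHRkd (ratio 0.606, deposited p = 0.370, the authors' deposited table). The interferon-induced apolipoprotein-like gene Apol9b stood at 47.8 and 64.4 TPM (ratio 0.693, deposited edgeR p = 0.101, the authors' deposited table). Complement and coagulation genes had a median of -0.11 (-0.01 by TPM values), and C8a, part of the membrane attack complex, stood at 96.1 TPM with rat IGF1, 139.8 TPM in aHepGHRkd and 338 TPM in Control.

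Fuel metabolism lay at the level of coding genes at large. The median log2 ratio was -0.01 for de novo lipogenesis (27 genes), 0.00 for glycolysis (22 genes), 0.06 for gluconeogenesis and glycogen (19 genes) and 0.01 for fatty acid oxidation (28 genes). By TPM values these medians were 0.08, 0.10, 0.16 and 0.11, near the 0.09 of all coding features. None of the members of these 4 lists was called or passed 1.5-fold. The lipid uptake and lipid droplet list (28 genes) had a median of -0.03 (0.07 by TPM values), with 0 called and 1 past 1.5-fold lower (0.91% of coding features that reached 1 TPM were). That gene was lipoprotein lipase (Lpl), at 6.86 TPM with rat IGF1 and 9.86 TPM in aHepGHRkd (ratio 0.658, deposited p = 1, the authors' deposited table). The lipogenic regulator Srebf1 stood at 51.8 TPM with rat IGF1, 66.9 TPM in aHepGHRkd and 40.2 TPM in Control, with a ratio to aHepGHRkd of 0.728 (deposited p = 0.961) in the authors' deposited table. The desaturase Scd1 stood at 3618, 3694 and 2267 TPM in the same order. The fatty acid transporter Cd36 stood at 46.9 TPM with rat IGF1, 57.4 TPM in aHepGHRkd and 19.6 TPM in Control. The gluconeogenic enzyme Pck1 stood at 1626, 1450.4 and 2835 TPM in the same order. For Srebf1, Scd1, Cd36 and Pck1 the TPM level with rat IGF1 lay between aHepGHRkd and Control. For Scd1, Cd36 and Pck1 it lay closer to aHepGHRkd than to Control. Cell cycle genes had a median log2 ratio of -0.15 over 23 members, and cyclin D1 (Ccnd1) stood at 59.0 TPM with rat IGF1, 69.7 TPM in aHepGHRkd and 18.7 TPM in Control.

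**Figure D4:**
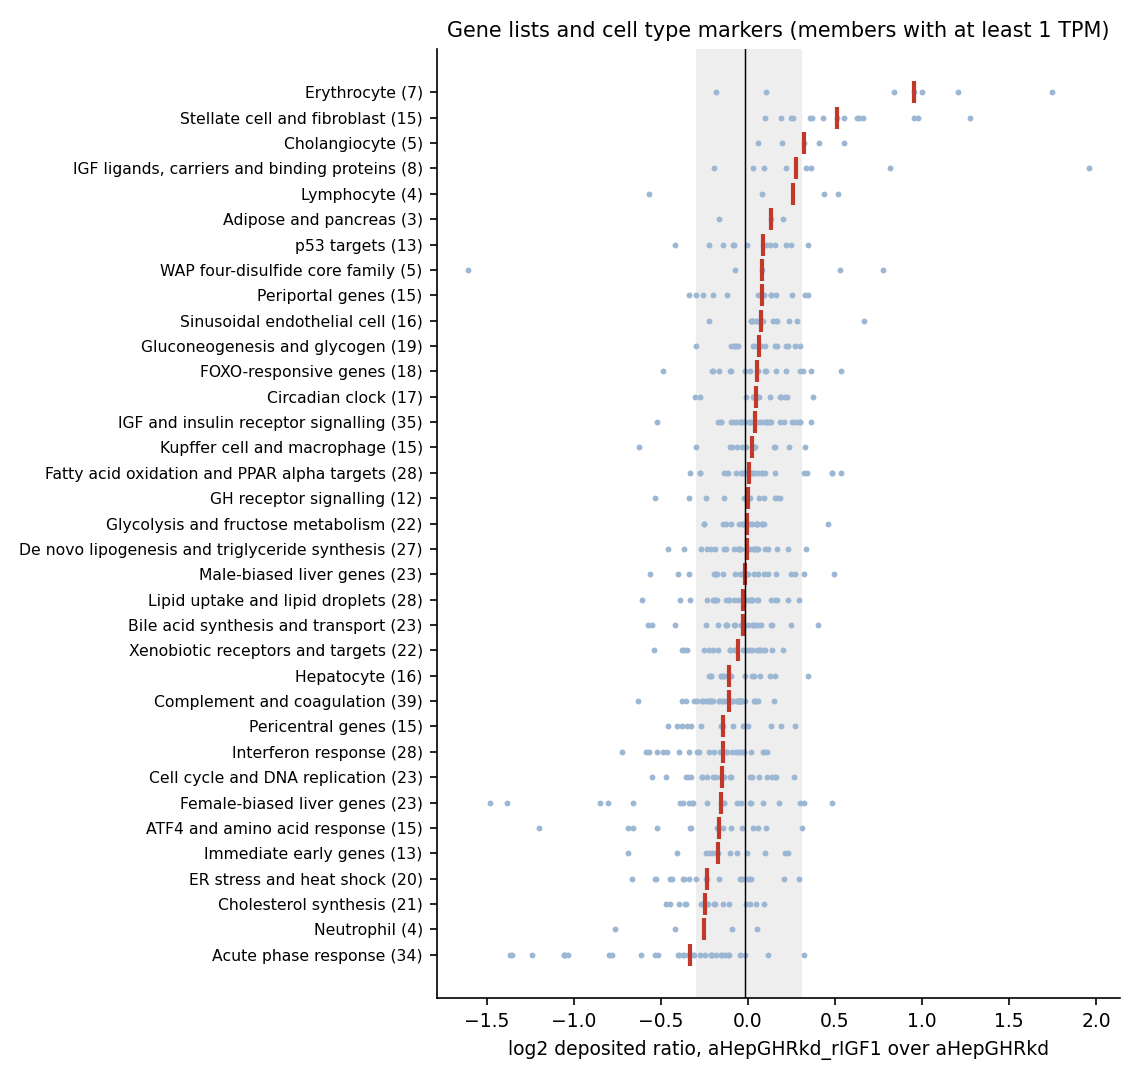
Log2 deposited ratio of aHepGHRkd_rIGF1 over aHepGHRkd (x) for the members with at least 1 TPM of each gene or marker list (y, number of members in parentheses); points are genes, red bars are list medians, the line is the median of all coding features and the grey band their 5th to 95th percentile. Acute phase genes have the lowest median and erythrocyte markers the highest of the lists drawn; the skeletal muscle list, whose ratios run far off this scale, is not drawn.

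Stromal and skeletal muscle markers and the globins had higher values with rat IGF1, and 0 of them were called. All 15 stellate cell and fibroblast markers that reached 1 TPM had a ratio above 1, and 6 of them were past 1.5-fold (1% of all such coding features were). The list summed to 165 TPM in aHepGHRkd_rIGF1, 109.7 TPM in aHepGHRkd and 106 TPM in Control. The median log2 ratio was 0.51, or 0.62 by TPM values. The collagen gene Col3a1 stood at 7.52 TPM with rat IGF1 and 2.87 TPM in aHepGHRkd (ratio 2.42, deposited p = 0.523, the authors' deposited table). The matrix proteoglycan decorin (Dcn) stood at 71.9 and 46.7 TPM, and the stellate cell retinol enzyme Lrat at 4.10 and 2.83 TPM. The endothelin receptor genes Ednra and Ednrb stood at 1.49 and 3.99 TPM with rat IGF1 and 0.756 and 2.17 TPM in aHepGHRkd, with ratios of 1.84 and 1.73 (deposited p = 0.121 and 0.163) in the authors' deposited table. The matrix protease Mmp2 (1.01 and 0.430 TPM), the matrix protein gene Abi3bp (1.68 and 0.800 TPM) and the fibulin Efemp1 (5.24 and 2.45 TPM) were also higher by value. Of the 5 cholangiocyte markers that reached 1 TPM, all had a ratio above 1, with a median log2 ratio of 0.32. Some stromal and cholangiocyte markers reached 1 TPM only in aHepGHRkd_rIGF1, as did Ednra, Mmp2 and Abi3bp, so the minimum fixed the direction of those. Ednra, Ednrb, Mmp2, Abi3bp and Efemp1 are outside the marker list. They were named for their p or ratio in this same comparison, so they add no separate evidence. Sinusoidal endothelial and Kupffer cell markers had medians of 0.08 and 0.02, and hepatocyte markers -0.11.

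Skeletal muscle transcripts were found at low levels in aHepGHRkd_rIGF1 and were lower by value in the other groups. The 9 markers summed to 14.8 TPM with rat IGF1, 2.26 TPM with active STAT5b, 1.96 TPM in aHepGHRkd and 2.00 TPM in Control. The muscle actin Acta1 stood at 3.36 TPM with rat IGF1 and 0.00951 TPM in aHepGHRkd (deposited p = 0.101, the authors' deposited table), and muscle creatine kinase Ckm at 1.99 and 0.00990 TPM (deposited p = 0.391). The myosin heavy chain Myh1 stood at 1.10 TPM with rat IGF1 and was listed at 0 in aHepGHRkd. Of the 7 markers that reached 1 TPM, 6 had a deposited p under 1, all higher with rat IGF1 (0.856% of all such coding features were). These 6 reached 1 TPM only in aHepGHRkd_rIGF1, so the minimum fixed their direction. The fast myosin light chain Mylpf reached it in both groups, at 2.20 TPM with rat IGF1 and 1.72 TPM in aHepGHRkd. How many of the 6 mice carried these transcripts cannot be read from a group value.

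Globin transcripts were also higher by value. Of the 7 erythrocyte markers that reached 1 TPM, 6 had a ratio above 1, and only the red cell gene Alas2 lay below. At least 1.5-fold higher were 5 of the 7 (1% of all such coding features were), and 0 were called. A marker that reached 1 TPM only in aHepGHRkd_rIGF1 had its direction fixed by the minimum. The erythrocyte list summed to 576 TPM in aHepGHRkd_rIGF1, 484 TPM in aHepGHRkd_STAT5bCA, 306 TPM in aHepGHRkd and 511 TPM in Control, a sum that the globins dominate and that was lowest in aHepGHRkd. Alas2, the erythroid enzyme of haem synthesis, which the male-biased list also holds, stood at 54.5 TPM in aHepGHRkd_rIGF1, 37.2 TPM in aHepGHRkd_STAT5bCA, 58.1 TPM in aHepGHRkd and 96.3 TPM in Control (ratio to aHepGHRkd 0.881, deposited p = 1, the authors' deposited table). Hba-a1, an alpha globin, stood at 220.1 TPM with rat IGF1 and 104 TPM in aHepGHRkd (ratio 1.94, deposited p = 0.501, the authors' deposited table). Beta globin genes share a span or near-identical sequence in the gene models, so they are given by list only. The lymphocyte list and the neutrophil list had 4 members each at 1 TPM, with median log2 ratios of 0.26 and -0.25. The part of muscle, stromal and blood transcripts in the acute phase and other results was not tested.

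**Figure D5:**
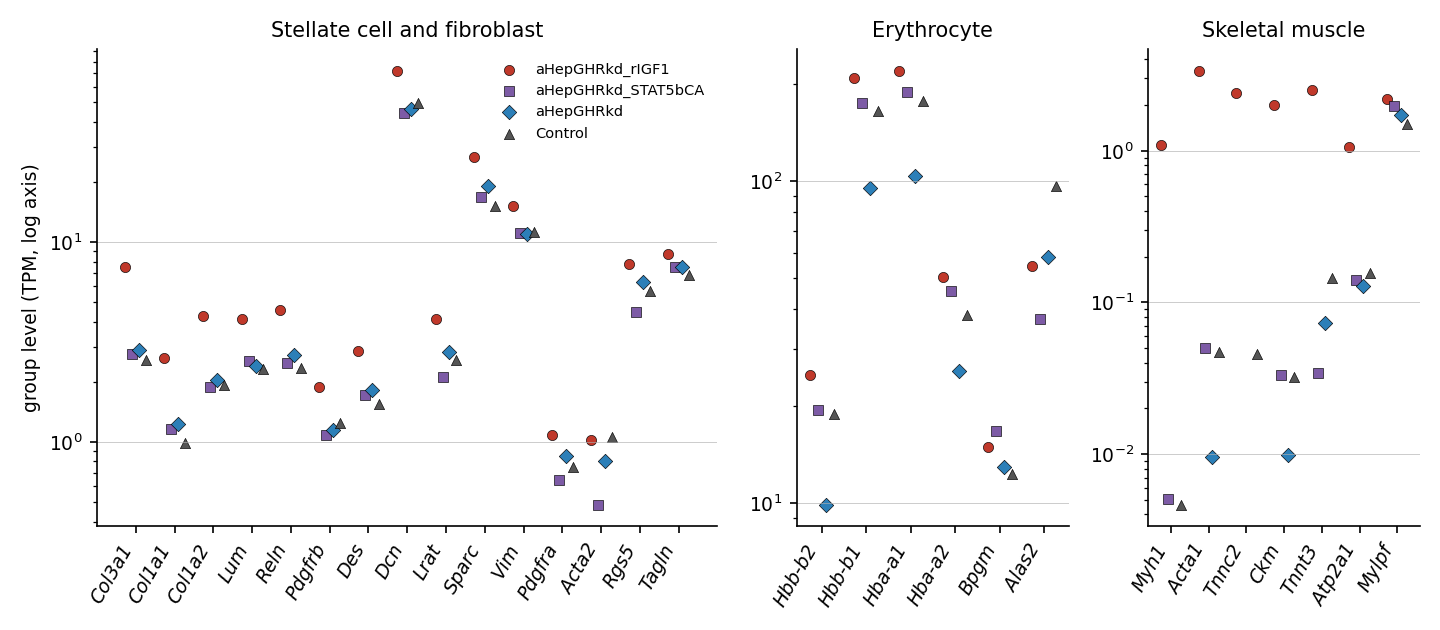
Group levels (y, TPM, log axis) of the stellate cell and fibroblast, erythrocyte and skeletal muscle markers that reached 1 TPM in aHepGHRkd_rIGF1 or aHepGHRkd (x), less 1 erythrocyte list member not reported here; each symbol is 1 group value from the authors' deposited table, and values listed at 0 are not drawn. The aHepGHRkd_rIGF1 symbol is the highest of the 4 for most stromal and all muscle markers, while in the globin genes aHepGHRkd is the lowest.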

How the data were processed

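The authors processed the libraries with STAR, featureCounts and edgeR on the mouse build mm9, per the submitters' processing notes; versions are not given in the sources used here. RNA was polyA-selected, per the labels. The authors deposited TPM for 75794 exon-collapsed features, summarised to a single number for each group with none for a mouse (the repeated aHepGHRkd columns are identical). Ratios (linear folds) are edgeR's, per the file headers. The deposited p-value has no stated adjustment, per the file headers. It was read as Benjamini-Hochberg adjusted because 75054 values are exactly 1 and the 740 under 1 hold 202 distinct numbers. With no value per mouse, the planned fits were not run. Depth is unknown, since TPM keeps none, so the precision of low levels cannot be stated.

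Coding features (20879) are those typed NM, of which 20699 matched a RefSeq symbol. Features were counted at a deposited p under 0.05, and at 1.5-fold where the higher group reached 1 TPM. The 26 gene lists and 10 marker lists were described by counts and medians, with no set test. Es31 and Ahsp were not matched, and some genes that the naming rule picks are not reported here. Members and lists were chosen with earlier results of these data known. Genes were named by rule: those called, the 12 next smallest p with at least 1 TPM, 8 each way by fold with at least 5 TPM, key genes of the lists, up to 2 per list by fold, and 12 by fold from aHepGHRkd over Control. Apcs, Cebpd, Dcn, Fga, Hpx, Igfbp7, Il6ra, Mylpf and Wfdc17 are list members outside this rule, chosen after their values were seen. Counting was checked on simulated data with python 3.11.15 and pandas 2.3.3. Promoters came from RefSeq windows on GRCm38.p6, and no coordinate was converted between builds. Alternatives were other p, TPM and fold thresholds, the TPM ratio, centring and a pseudocount of 1 TPM.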

Additional observations from a re-analysis of the deposited data

Results flagged for a closer look

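Noncoding features lie outside the coding comparison. Of 54915, 3 were called higher with rat IGF1 (0.00546%) and 1 lower (0.00182%, the feature overlapping Wfdc21) in the authors' deposited table, against 0% and 0.00958% of coding features. GM42901, an antisense feature on chromosome 3, stood at 0.355 TPM in aHepGHRkd_rIGF1 and 0.0490 TPM in aHepGHRkd (ratio 6.7, deposited edgeR p = 0.000458, the authors' deposited table). NC_INTRA_C2_33673, a long noncoding RNA on chromosome 2, stood at 4.42 TPM with rat IGF1, 1.10 TPM in aHepGHRkd and 11.7 TPM in Control (ratio to aHepGHRkd 3.67, deposited p = 0.000458, the authors' deposited table). NC_INTRA_C3_36552 on chromosome 3 stood at 89.1 TPM with rat IGF1, 44.4 TPM in aHepGHRkd and 41.2 TPM in Control (ratio to aHepGHRkd 1.88, deposited p = 0.0114, the authors' deposited table). Mice far from the rest of their group cannot be seen in group values.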

How the results depend on the processing

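The 2 called coding features were also the count with a 1 TPM minimum and with a fold of at least 2 added; the count was 3 at a deposited p under 0.1, 0 at a deposited p under 0.01, and 334 at a deposited p under 1, chosen after seeing the data. The median log2 ratio of coding features was 0.087 with the ratio of group TPM values, 0.077 with 1 TPM added to both groups, -0.0041 with a minimum of 0.1 TPM and -0.031 with a minimum of 5 TPM; the TPM values carry the scaling shift by construction. Features past 1.5-fold numbered 210 (110 higher, 100 lower), 260 (203 and 57) with the TPM ratio, 210 (117 and 93) centred on the median, 75 (47 and 28) with 1 TPM added, and 67 (21 and 46) with a minimum of 5 TPM. A 2-fold limit left 54 (25 and 29). Lists whose median lay over 0.2 log2 from that of all coding features numbered 10 (6 higher, 4 lower), 10 with the TPM ratio and 11 with a minimum of 0.1 TPM. Wfdc21 and Orm1 stayed lower under the TPM ratio and with 1 TPM added. No paired analysis was possible because the authors' deposited table holds no value per mouse; for the same reason no mouse could be left out. Depth per library, which bounds the low levels, is unknown.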

Other observations

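Some genes outside the lists stood out by value, without a call; apart from Tff3, they were chosen after their values were seen. The trefoil peptide gene Tff3 stood at 4.98 TPM in aHepGHRkd_rIGF1 and 16.8 TPM in aHepGHRkd, against 16.4 TPM in Control (ratio to aHepGHRkd 0.284, deposited p = 1, the authors' deposited table). With active STAT5b Tff3 stood at 2.40 TPM, lower still. Its relative Tff1 stood at 3.22 TPM with rat IGF1 and 5.25 TPM in aHepGHRkd (ratio 0.569, deposited p = 1, the authors' deposited table). The nicotinamide methyltransferase Nnmt stood at 279 and 388 TPM with and without rat IGF1 (ratio 0.663, deposited p = 0.391, the authors' deposited table). The ligand gene Gas6, which activates the TAM receptors, stood at 60.9 and 89.0 TPM (ratio 0.634, deposited p = 0.759, the authors' deposited table). On the higher side, the matrix Gla protein Mgp stood at 5.64 TPM with rat IGF1 and 2.70 TPM in aHepGHRkd (ratio 1.93, deposited p = 0.391, the authors' deposited table), and the actin-severing protein gelsolin (Gsn) at 9.03 and 4.54 TPM. None of these values has a spread between mice.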
